A study of Mus musculus with 6 samples.

Results

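Microglia live on signals from colony-stimulating factor (CSF) receptors. The 8 genes described here encode Csf1r, its ligands, the survival factors Csf1 and Il34, the alpha chain of the GM-CSF receptor, Csf2ra, the beta chains Csf2rb and Csf2rb2, the G-CSF receptor Csf3r, and Kit, the receptor for stem cell factor. Every non-control array probe designed on a transcript of one of these genes was taken, which gave 14 probes of 56601 tested, and the 8 genes were among 23462 genes with a named probe.

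Csf1r and Kit are receptor tyrosine kinases of one structural family, and ligand binding makes them pair, phosphorylate themselves and recruit adaptors that lead to the PI3K-Akt and Ras-ERK pathways. The GM-CSF receptor and Csf3r have no kinase of their own and signal through Jak kinases and Stat proteins. In the brain, Csf1r is required for microglia to survive, Il34 is made largely by neurons and Csf1 by glia. The beta chain Csf2rb is shared by the receptors for GM-CSF, IL-3 and IL-5, while its close paralog Csf2rb2, which lies beside it in the mouse genome, pairs with the IL-3 receptor.

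The cells were microglia of 3-month-old mice on a C57BL/6 background, enriched on Percoll and sorted as live cells with low CD45 and with Cx3cr1 and CD11b on the surface. The 3 control samples carried Bhlhe41 dTomato-Cre/+ (B41HET) and the 3 knockout samples Bhlhe41 dTomato-Cre/dTomato-Cre (B41KO). Both genotypes therefore carried the dTomato-2A-Cre-polyA cassette placed ahead of the Bhlhe41 start codon, the control had 1 intact copy, and no wildtype sample was in the comparison. The knock-in is present in every cell of the animal, so the comparison was not limited to effects that arise within microglia. Each sample was pooled from several mice according to the Methods, while the labels speak of 3 mice per genotype. The RNA was hybridised in 1 colour to 6 arrays of 1 slide, so each probe gave 1 fluorescence signal per sample. Values are quantile-normalized log2 signals, and a probe was called where limma gave an adjusted p of 0.05 or less, with Benjamini-Hochberg adjustment over all probes, and the log2 fold change was at least 0.5 in size. In bulk RNA, fewer cells of a type and less RNA per cell cannot be told apart, and signals of different probes cannot be ranked against each other.

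On each array 70.0% to 75.5% of probes were well above background and 0 spots were saturated. The 3 B41HET arrays and B41KO replicate 1 lay in slide row 1 and the other B41KO arrays in row 2. Neither of the Bhlhe41 probes was lower in the samples labelled B41KO (log2 fold changes of 0.38, adjusted p = 0.330, and 0.33, adjusted p = 0.203), so this transcript could not serve as a check of the labels, which were taken as they stand. Across all probes, 2867 (5.07%) were called, 975 (1.72%) higher and 1892 (3.34%) lower in B41KO. When arrays were instead scaled to their 75th percentile, the split was 1297 higher and 1534 lower, and the median log2 fold change of all probes was 0.13 in place of 0.02. The microglia markers Tmem119 and Cx3cr1 were well above background on all 6 arrays, with mean B41HET signals of 14.86 and 15.002.

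Of the 14 CSF receptor and ligand probes, 2 were called, both lower in B41KO and both for Csf2rb, against 5.07% called and 3.34% called lower over all probes. No probe of another member was called by limma in either direction. At an unadjusted p of 0.05 or less, 2 of the 14 probes were higher and 3 lower, the called probes among them. Over all probes, 11% were higher and 12.1% lower at that p. Of the 14 probes, 12 were well above background on all 6 arrays, and the other 2, both for Csf1, on none. The genotypes did not overlap in 7 of the 14 probes, 2 with B41KO above and 5 with B41KO below, where 29.7% of all probes did not overlap. The median log2 fold change over the 14 probes was -0.07, and over all probes it was 0.02.

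**Figure D1:**
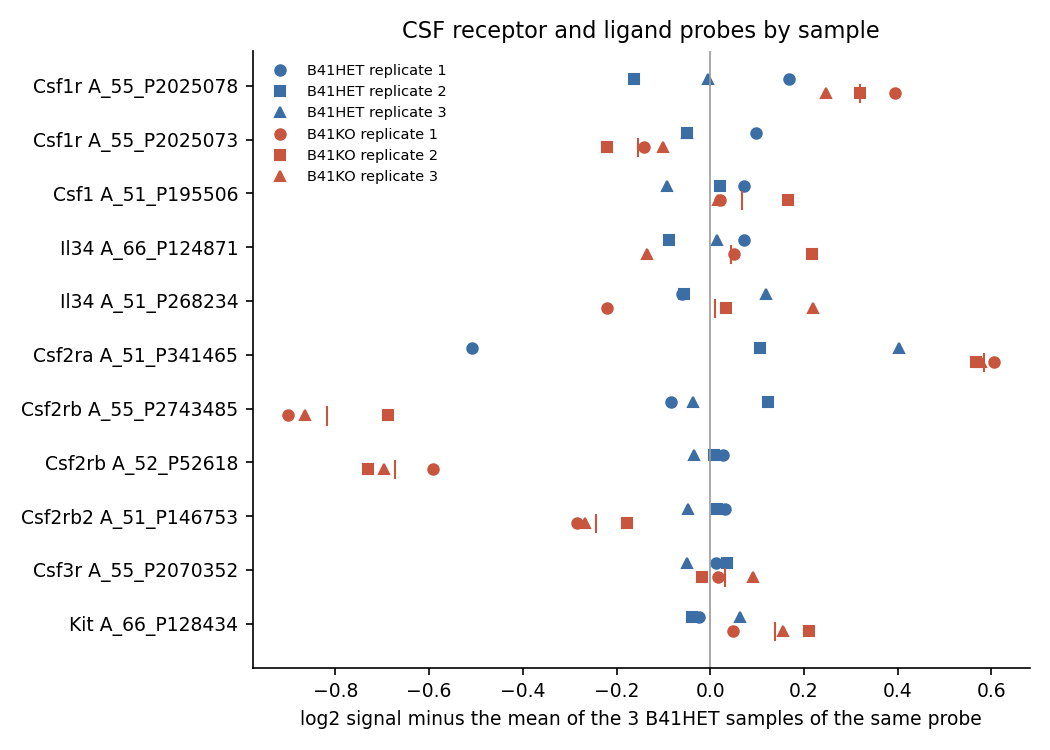
Log2 signal of each sample minus the mean of the 3 B41HET samples of the same probe (x axis) for 11 of the 12 probes well above background (y axis), with 1 point per sample and a red tick at the B41KO mean. Both Csf2rb probes shown have all B41KO samples at least 0.56 below all B41HET samples; the remaining Csf2rb probe, with 1 value far from the rest, is plotted on its own scale with the other beta chain probes.

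The common beta chain gave the clearest difference among the members. On probe A_55_P2743485 the log2 signals of Csf2rb were 10.80, 11.01 and 10.85 in B41HET and 9.98, 10.20 and 10.02 in B41KO. All B41KO samples lay below all B41HET samples, by 0.60 at the nearest. The means were 10.88 ± 0.11 and 10.07 ± 0.11 (SD, n = 3 each), a 1.76-fold lower signal in B41KO, with a log2 fold change of -0.82 (standard error, SE, of 0.10, with limma's adjusted p = 0.0128).

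The second probe, A_52_P52618, gave Csf2rb signals of 9.46, 9.44 and 9.40 in B41HET and 8.84, 8.70 and 8.74 in B41KO. Again the genotypes were apart in every sample, with a gap of 0.56. The log2 fold change was -0.67 (SE 0.07, adjusted p = 0.00986), or 1.59-fold lower. On each array the difference between these 2 probes was 1.34, 1.57 and 1.45 in B41HET and 1.14, 1.496 and 1.29 in B41KO, and it did not differ between genotypes beyond its spread (two-sided exact permutation p = 0.30, n = 3 each; the smallest p that 3 against 3 allows is 0.10).

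Both Csf2rb calls were lost when the slide row entered the fit or 1 control sample was left out. Within slide row 1, B41KO replicate 1 lay 0.90 and 0.59 below the B41HET mean on the 2 probes, and with slide row added as a block the adjusted p was 0.0851 and 0.0946 (neither called). Without B41HET replicate 2 the adjusted p was 0.0564 and 0.0555, with log2 fold changes of -0.76 and -0.67.

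The third Csf2rb probe, A_52_P664853, read 10.71, 10.65 and 16.56 in B41HET and 10.49, 10.52 and 10.46 in B41KO. B41HET replicate 3 lay 5.85 above the next sample, and the other five samples lay within 0.25 of each other. The spot's processed intensity on that array was 99019, against 1215 to 1902 on the others, and it ranked 19th among the spots of that array that were not controls. It carried no outlier flag of its own, but its local background was flagged as non-uniform there and on no other array, as were the backgrounds of all 6 nearest spots. One of those neighbours, A_66_P117190, read 54801 on this array against 1013 to 1290 on the others. Of all probes, 3 had 1 array at least 4 above every other array.

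With all values, this probe gave a log2 fold change of -2.15 (SE 1.64, adjusted p = 0.512). With the value of B41HET replicate 3 dropped, it gave -0.19 (SE 0.08, adjusted p = 0.255), smaller than on the other Csf2rb probes. The mean over the 3 probes, -1.21, also held that value.

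**Figure D2:**
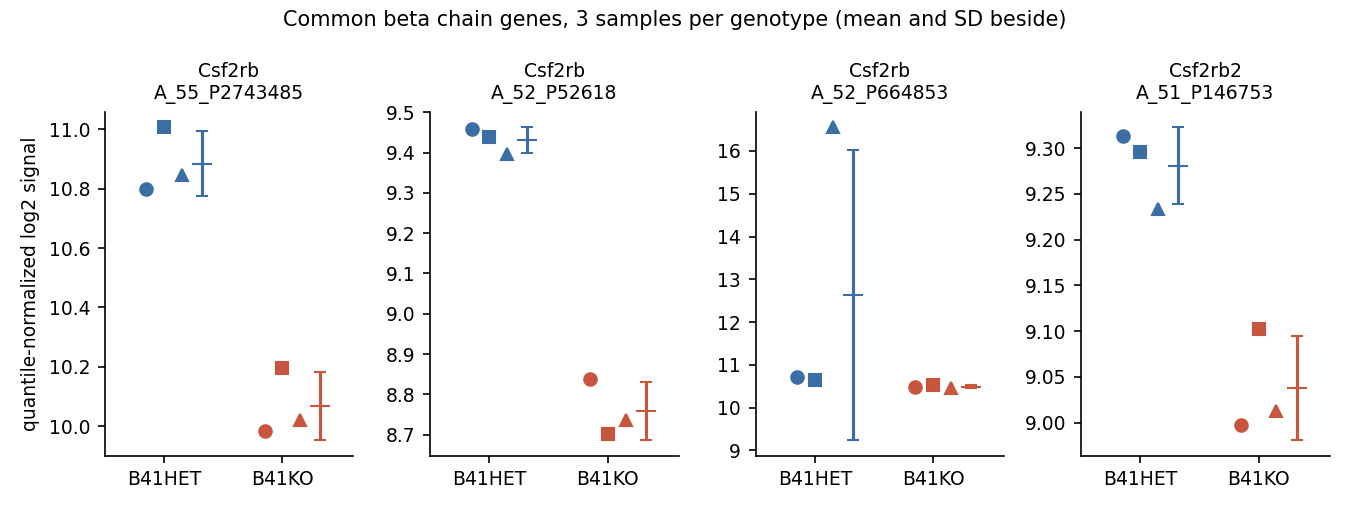
Quantile-normalized log2 signal (y axis, a separate scale in each panel) of the 3 Csf2rb probes and the Csf2rb2 probe in the samples of each genotype (x axis), with the mean and SD beside the points. B41KO lies below B41HET without overlap in all 4 panels, and the single high B41HET replicate 3 value of 16.56 sets the mean and SD of the third panel.

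Csf2rb2, the paralog that takes part in IL-3 binding, was measured by A_51_P146753. Its signals were 9.31, 9.30 and 9.23 in B41HET and 8.997, 9.10 and 9.01 in B41KO. The genotypes did not overlap, but the log2 fold change of -0.24 (SE 0.07, adjusted p = 0.109) was not called. Within arrays, Csf2rb minus Csf2rb2 was 0.57 lower in B41KO with A_55_P2743485 and 0.43 lower with A_52_P52618 (two-sided exact permutation p = 0.10 each, n = 3 each, the smallest possible; 0.117 after Benjamini-Hochberg adjustment over 7 such pairs). The third Csf2rb probe, without its high value, had a smaller log2 fold change (-0.19) than Csf2rb2, so a larger difference for Csf2rb did not hold on every probe. Csf2rb and Csf2rb2 are close in sequence, the probe sequences were not used here, and how much signal each probe takes from the other gene was not tested.

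The GM-CSF receptor alpha chain, which binds the ligand before the beta chain joins, lay in the opposite direction without passing the test. Csf2ra signals on A_51_P341465 were 9.46, 10.08 and 10.37 in B41HET and 10.58, 10.54 and 10.55 in B41KO. The B41KO samples lay close together above all B41HET samples, among which replicate 1 was the low one. The log2 fold change was 0.58 (SE 0.23, 95% interval 0.01 to 1.16, adjusted p = 0.213), and without B41HET replicate 1 it was 0.33.

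Set against the beta chain on the same array, Csf2ra minus Csf2rb (A_55_P2743485) was -1.34, -0.93 and -0.47 in B41HET and 0.59, 0.34 and 0.53 in B41KO. That within-array difference was 1.40 higher in B41KO, and 1.26 higher with A_52_P52618 as the beta chain probe. Both separated the genotypes completely, which had to follow because each probe alone separated them, in opposite directions. The smallest possible p of 0.10 (two-sided exact permutation test, n = 3 each), or 0.117 adjusted over the 7 pairs, was thereby fixed and adds no evidence. The pairs were chosen after the opposite directions had been seen, this test cannot pass 0.05 at this size, and the difference is not a ratio of transcripts.

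The stretches upstream of the transcription start that RefSeq gives for Csf2rb2 and Csf2ra are shown here, 250 bases each on the gene's strand in GRCm38.p6. Among the members whose entry was searched, only these had genotypes that did not overlap, in opposite directions, although neither was called. Csf2rb, Csf1r and Il34 were not among the members searched, so nothing is said of their promoters. Capitals mark GAGGAA or its reverse complement TTCCTC, the core bound by PU.1 (Spi1), a factor that drives many myeloid receptor genes.
Csf2rb2, chr15:78305722-78305971, minus strand: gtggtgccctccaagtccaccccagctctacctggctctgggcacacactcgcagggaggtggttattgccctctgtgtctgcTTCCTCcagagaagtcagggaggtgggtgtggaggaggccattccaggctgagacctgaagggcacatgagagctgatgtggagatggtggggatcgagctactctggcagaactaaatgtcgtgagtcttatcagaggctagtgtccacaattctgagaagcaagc
Csf2ra, chr19:61228419-61228668, minus strand: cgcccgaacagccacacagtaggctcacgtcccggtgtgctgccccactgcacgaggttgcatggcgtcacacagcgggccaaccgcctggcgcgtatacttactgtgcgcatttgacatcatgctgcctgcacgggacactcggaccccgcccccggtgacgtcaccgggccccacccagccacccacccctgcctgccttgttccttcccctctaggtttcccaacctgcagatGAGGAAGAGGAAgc

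Csf2rb2 held 1 such core and Csf2ra held 2. Csf3r and Kit, whose genotypes overlapped, held 1 in each window as well, Csf1 held 0, and 23.3% of 32851 promoter windows of this length held at least 1. The E-box CACGTG, the sequence that Bhlhe41 family repressors bind, was in none of the windows of the 5 members searched (Csf1, Csf2ra, Csf2rb2, Csf3r and Kit) and in 6.02% of all windows. A Stat motif, TTCNNNGAA, was searched on both strands as the other motifs were. It was found once, in Csf2rb2, and in 7.02% of all windows. These are matches of letters in these windows, and binding was not measured.

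Csf1r, on which adult microglia depend, was read by 2 probes designed on the same transcript, and they differed. A_55_P2025078 gave 14.31, 13.98 and 14.14 in B41HET and 14.54, 14.47 and 14.39 in B41KO. All B41KO samples were higher, with a log2 fold change of 0.32 (SE 0.11, adjusted p = 0.148), which was not called. A_55_P2025073 gave 14.44, 14.29 and 14.29 in B41HET and 14.19, 14.12 and 14.24 in B41KO. Here all B41KO samples were lower, with a log2 fold change of -0.15 (SE 0.08, adjusted p = 0.321), also not called.

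The first Csf1r probe minus the second was -0.12, -0.30 and -0.15 in B41HET and 0.35, 0.35 and 0.16 in B41KO, negative in every B41HET and positive in every B41KO sample. Its change was 0.48 (two-sided exact permutation p = 0.10, n = 3 each, the smallest possible, 0.117 adjusted over the 7 pairs). This pair was chosen after its probes were seen to separate the genotypes in opposite directions. That separation fixed the p of 0.10, so it adds no evidence. The mean of both probes gave 0.08 on the log2 scale (adjusted p = 0.620), so no direction is given for the gene. With normexp background correction the first probe had a log2 fold change of 0.42 and an adjusted p of 0.0402, below the fold threshold.

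The Csf1r ligands did not differ beyond their spread. Csf1 on A_51_P195506 was 8.04, 7.99 and 7.87 in B41HET and 7.98, 8.13 and 7.98 in B41KO, with overlap and a log2 fold change of 0.07 (95% interval -0.14 to 0.28, adjusted p = 0.697). The other Csf1 probes, designed on a different transcript of the gene, were not well above background on any array, so they gave no measured direction. Il34 was 6.26, 6.10 and 6.20 in B41HET and 6.24, 6.40 and 6.05 in B41KO on A_66_P124871, and the genotypes overlapped. Its log2 fold change was 0.04 (95% interval -0.23 to 0.32, adjusted p = 0.860). The second Il34 probe, A_51_P268234, overlapped too, with 0.01 (95% interval -0.32 to 0.34).

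Csf3r, the receptor through which G-CSF drives neutrophil production and which microglia also express, was 14.54, 14.56 and 14.48 in B41HET and 14.54, 14.51 and 14.62 in B41KO. The samples were mixed, with a log2 fold change of 0.03 (SE 0.07, 95% interval -0.14 to 0.20, adjusted p = 0.844). Kit, known from stem cells and mast cells, was 5.59, 5.57 and 5.68 in B41HET and 5.66, 5.82 and 5.77 in B41KO. The genotypes overlapped slightly, with a log2 fold change of 0.14 (95% interval -0.05 to 0.33, adjusted p = 0.365).

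**Figure D3:**
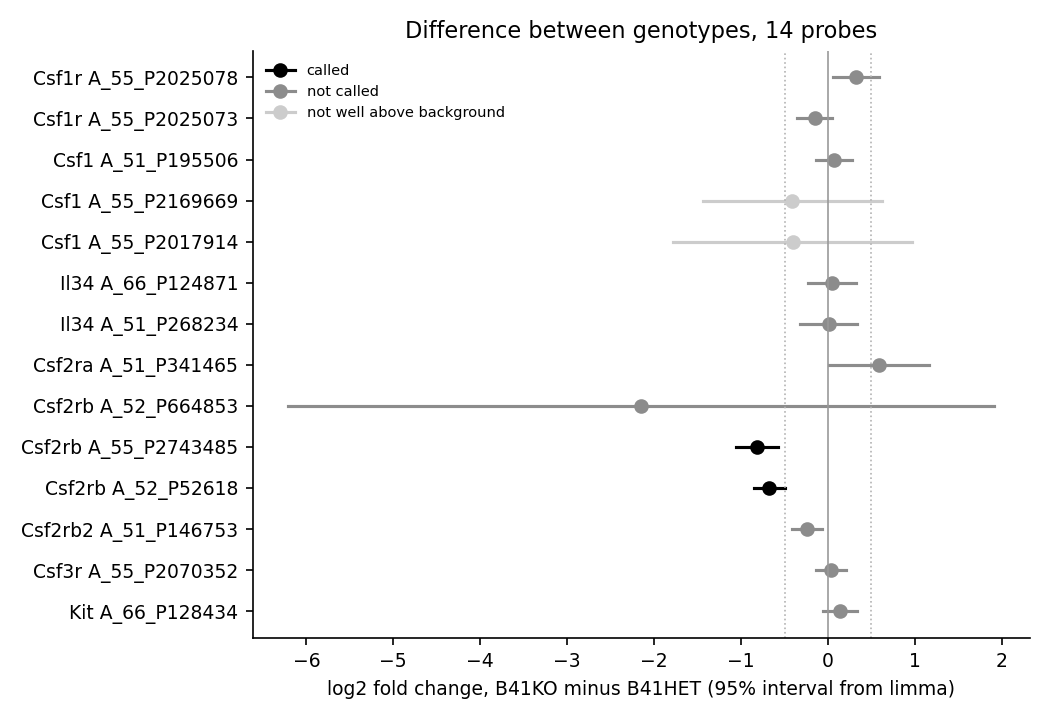
Log2 fold change, B41KO minus B41HET, with its 95% interval from limma (x axis) for all 14 probes (y axis), the dotted lines marking a size of 0.5. The intervals of both called Csf2rb probes, -1.06 to -0.58 and -0.85 to -0.49, lie below 0, and that of A_52_P664853 runs from -6.21 to 1.91.

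The ligands and receptors that work with these genes showed no call. Among 10 probes for Csf2, Csf3, Kitl, Il3, Il5 and Flt3l, 0 were called by limma. At an unadjusted p of 0.05 or less, 1 was higher and 1 lower, beside 11% higher and 12.1% lower over all probes. Flt3l, the growth factor of the related receptor Flt3, gave -0.30 on A_51_P374337 (adjusted p = 0.0692) and 0.14 on A_52_P644690 (adjusted p = 0.298), in opposite directions. The brighter probe of Il3 gave 0.17 (adjusted p = 0.357). Kitl, the ligand of Kit, gave 0.56 on its dimmest probe, A_51_P133936, with all B41KO samples higher (adjusted p = 0.0577), and 0.03 and -0.21 on its brighter ones. Among 13 probes for Il3ra, Il5ra, Flt3, Pdgfra, Pdgfrb, Ptprz1 and Sdc1, 0 were called as well. Here 3 were higher and 1 lower at an unadjusted p of 0.05 or less, beside the same shares over all probes.

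Il3ra, the IL-3 receptor alpha chain, is a partner of the beta chain in the receptor for IL-3. On its brighter probe, A_55_P2008181, it was 9.28, 9.33 and 9.32 in B41HET and 9.75, 9.55 and 9.82 in B41KO. The B41KO samples were all higher, by 0.39 on the log2 scale (adjusted p = 0.0655, not called). Its other probe gave 0.21 (adjusted p = 0.192). Sdc1, a syndecan that binds Il34, gave -0.42 on its brightest probe (adjusted p = 0.0880).

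Downstream of the receptor kinases, 6 of 35 probes were called, all lower in B41KO, and 29 were not. The genes were Pik3cb, Src, Pik3cd, Mapk3, Fyn and Shc1. Pik3cb, a catalytic subunit of PI3K, fell by 1.18 on A_55_P2743735 (adjusted p = 0.0212), while its dimmer probe gave 0.02. Src, a tyrosine kinase recruited by Csf1r, fell by 0.69 on A_52_P600547 (adjusted p = 0.0207), while its other probe gave 0.08. Pik3cd, the PI3K subunit prominent in leukocytes, was called on 1 of 4 probes, at -0.58 (adjusted p = 0.0165), while its brightest probe gave -0.17 (adjusted p = 0.244) and the others -0.07 and 0.29.

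Mapk3, the kinase ERK1, had 1 probe and was 11.90, 12.05 and 12.05 in B41HET and 11.52, 11.45 and 11.33 in B41KO. No sample overlapped, and the log2 fold change was -0.57 (adjusted p = 0.0251). The kinase Fyn fell by 0.56 (adjusted p = 0.0296) on a dim probe, with mean signals of 4.65 in B41HET and 4.09 in B41KO. The adaptor Shc1 fell by 0.52 on 1 of 2 probes (adjusted p = 0.0424), while its other probe gave 0.19. The brightest genes of the list without a called probe, the adaptor Tyrobp and the phosphatase Ptpn6, gave 0.04 (adjusted p = 0.7995) and -0.13 (adjusted p = 0.289).

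Of the Jak-Stat pathway and its feedback and target genes, 3 of 25 probes were called, again lower. Socs3, which inhibits signalling by Jak kinases and binds Csf3r, was 11.25, 11.25 and 11.08 in B41HET and 10.56, 10.51 and 10.44 in B41KO. That is a log2 fold change of -0.69 (SE 0.08, adjusted p = 0.0130) without overlap. Bcl2l1, which encodes the survival protein Bcl-xL, fell by 0.89 on its brightest probe, A_52_P510877 (adjusted p = 0.0198). Of its 5 probes 2 were called, and the remaining ones gave -0.38, -0.41 and -0.38. Mcl1 gave -0.01 (adjusted p = 0.961) and Stat5a 0.08 (adjusted p = 0.695) on their brightest probes.

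Among transcription factors that act on Csf1r and other myeloid receptor genes, 1 of 14 probes was called. Ets2 fell by 0.65 (adjusted p = 0.0356). Spi1, which encodes PU.1, gave -0.39 (adjusted p = 0.0420) and was below the fold threshold. Runx1 lay the other way, with 0.49 on its brightest probe (adjusted p = 0.0296), also below the fold threshold, and 0.35 and 0.36 on its other probes. Irf8 gave -0.04 (adjusted p = 0.768). Over the 97 probes of these 60 partner and signalling genes, 10 were called lower and 0 higher by limma, beside 3.34% called lower and 1.72% called higher over all probes. At an unadjusted p of 0.05 or less, 25 of them were lower and 11 higher, beside 12.1% lower and 11% higher over all probes. Their median log2 fold change was -0.03, and over all probes it was 0.02. With slide row added as a block, or without B41HET replicate 1 or replicate 2, limma called 0 of the 97, with 24, 31 and 33 at an unadjusted p of 0.05 or less.

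**Figure D4:**
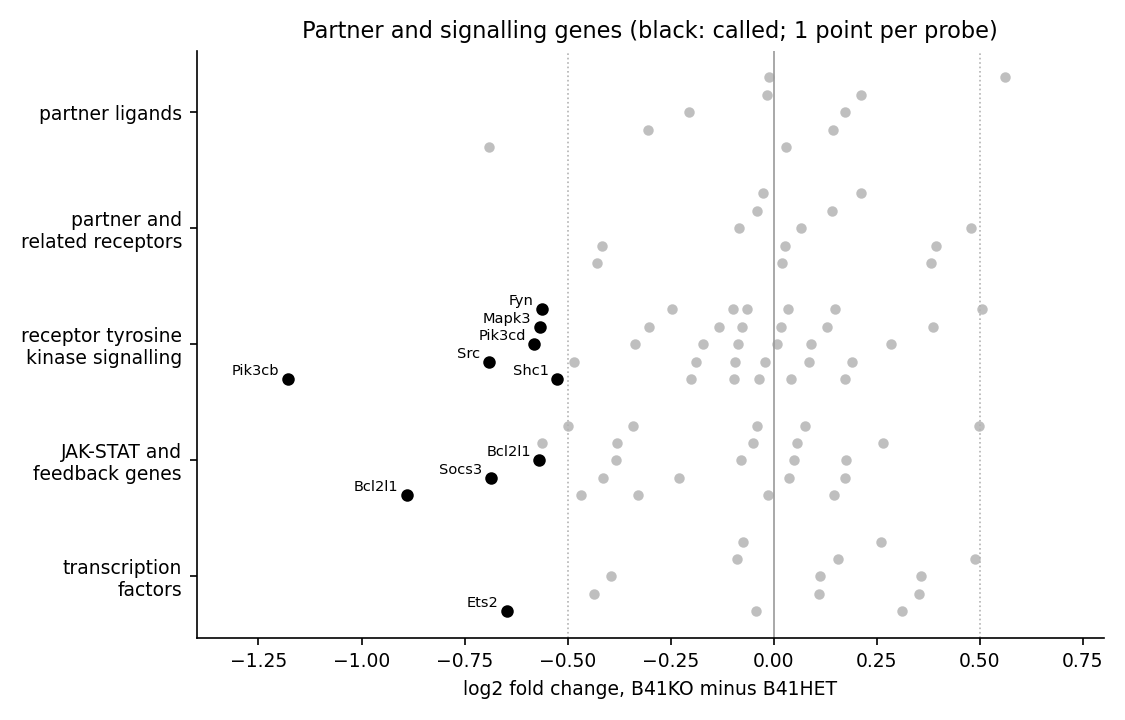
Log2 fold change, B41KO minus B41HET (x axis), of the 97 probes of 60 partner and signalling genes in 5 lists (y axis, points spread for visibility), with called probes in black and named and dotted lines at a size of 0.5. All 10 called probes lie to the left, 6 in receptor tyrosine kinase signalling, 3 in Jak-Stat signalling and 1 among transcription factors.

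Some markers of other cells were also lower in B41KO, and none was tested against Csf2rb. Of 11 neutrophil markers 7 were called, all lower in B41KO, among them Ltf and Ngp, granule proteins, at -3.17 (adjusted p = 0.00104) and -3.13 (adjusted p = 0.000336), and S100a8 at -2.22 (adjusted p = 0.00174). The others called were S100a9, Retnlg, Camp and Ly6g. Their summed log2 level was 14.51 to 14.68 in B41HET and 11.95 to 12.08 in B41KO, and all 11 were well above background on all arrays. Elane, Cxcr2, Mpo and Mmp8 were not called, with -0.04, -0.09, 0.39 and -0.61 (adjusted p = 0.0535 for Mmp8, whose genotypes did not overlap).

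Of 9 border macrophage probes 6 were called lower, for Cbr2, Cd163, Pf4 and F13a1, with summed levels of 8.17 to 8.34 in B41HET and 7.002 to 7.11 in B41KO. The defining genes Mrc1 and Lyve1 were well above background on all B41HET arrays and on no B41KO array, at least 2.12-fold and 1.28-fold higher in B41HET against the lowest signal measured above background or the probe's own, and neither was called (adjusted p = 0.0745 and 0.0974). Of 13 dendritic cell probes 3 were called lower, for Clec10a and Cd209a, while the other Cd209a probe gave -0.12 (adjusted p = 0.715). The summed dendritic cell levels were 8.47 to 8.69 in B41HET and 7.74 to 7.90 in B41KO. Zbtb46 and Itgax, on their brightest probes, gave 0.01 (adjusted p = 0.952) and 0.08 (adjusted p = 0.811). Of 7 endothelial probes 3 were called lower, for Ly6c1 and Pecam1, while Cldn5 and Slco1a4, well above background on all arrays, gave -0.13 (adjusted p = 0.473) and 0.04 (adjusted p = 0.805). The summed endothelial levels, in which Ly6c1 and Pecam1 are the brightest genes, were 10.23 to 10.36 in B41HET and 8.84 to 8.97 in B41KO.

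Of 12 probes for markers of mast cells and progenitors, cells known for Kit, 3 were called lower. Hdc, the histamine-forming enzyme, had log2 fold changes of -2.48 and -2.20 on its probes, and Gata2, the third call, was below that level on every array. Cpa3 and Ms4a2 likewise stayed below it, and the list's summed level was 12.82 to 12.95 in B41HET and 12.60 to 12.67 in B41KO. Of 14 microglia marker probes 1 was called, Fcrls, at -0.76 (adjusted p = 0.00581), with a summed level of 17.27 to 17.40 in B41HET and 17.17 to 17.26 in B41KO. Neuron and astrocyte lists had 0 of 11 and 1 of 12 probes called by limma. The call was the astrocyte water channel Aqp4, at 0.70 on a dim probe (adjusted p = 0.0255), while its other probes gave 0.23, -0.11 and -0.38. At an unadjusted p of 0.05 or less, 2 neuron probes were higher and 0 lower, beside 11% higher and 12.1% lower over all probes. The part of any of these cells in the Csf2rb result was not tested.

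**Figure D5:**
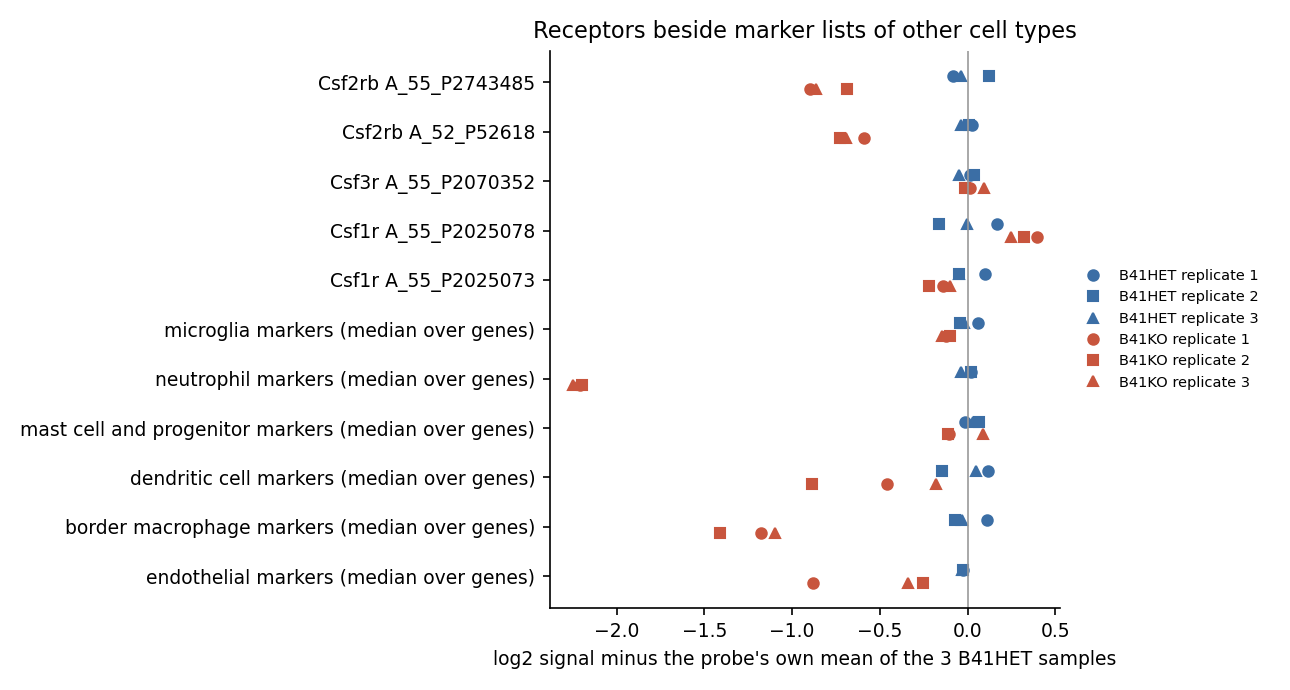
Log2 signal of each sample minus the mean of the 3 B41HET samples of the same probe (x axis) for Csf2rb, Csf3r and Csf1r, and the median of that deviation over the genes of 6 marker lists, each gene by its brightest probe (y axis), with 1 point per sample. In the B41KO samples the neutrophil medians lie between -2.25 and -2.198, those of border macrophages between -1.41 and -1.0966, those of dendritic cells between -0.89 and -0.18 and those of microglia between -0.14 and -0.0976, and Csf3r lies near 0.

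The named genes whose signal over the 6 arrays was most like Csf1r (A_55_P2025078) were Cox20, Nus1 and Gtf3c2, with Pearson correlations of 0.999, 0.996 and 0.995 among 17206 genes well above background. With 6 arrays and that many genes, this is a description of these arrays. The genes most like the brightest Csf2rb probe, Hsd17b4, Btbd10 and Birc7 (0.978, 0.976 and 0.976), were found with the high value of B41HET replicate 3 included.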

How the data were processed

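The authors deposited 1 scanner output per array (Agilent Feature Extraction 11.5.1.1, per the file headers) and a table of processed log2 values. The deposited intensity values are background-subtracted within each array and not normalized between arrays. Controls were removed, as were outlier-flagged spots (95 to 136 on an array). Log2 intensities were then quantile normalized, as the Methods state, and averaged per probe. Probes were named by matching transcript accessions, without versions, to RefSeq genes (33767 probes, 59.7%). Genotype was the only term in limma 3.58.1 (R 4.3.3), and figures used matplotlib 3.10.9 in Python 3.11.15. All 6 samples entered the model. Every probe of the members is reported. Of each pathway and marker list, genes with a called probe and up to 2 with the highest signal were to be named. Kitl, Runx1, Elane, Cxcr2, Mpo, Mmp8, Itgax, Cldn5, Slco1a4, Mrc1, Lyve1, Cpa3, Ms4a2, Fcer1a, Mcpt4 and Gata1 were added after their values were seen. The members and lists were chosen with earlier results of these data known. Some marker results are not reported here. The fit was tested on simulated data. Alternatives were the 75th percentile shift, the authors' values, normexp, a filter on dim probes, outlier spots kept, trend and robust variance, replicate and slide row blocks, samples left out in turn, no fold threshold, and other probe rules. Normexp was planned on mean signals and was run, after the data were seen, on median signals with an offset of 50. The removal of the bright Csf2rb value, the within-array differences and the marker list medians were also chosen after the data were seen. The number of arrays limits the precision, and the p-values set each difference against the spread between these samples. If the samples were pools, as the Methods state, the p-values do not describe variation between single mice.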

Additional observations from a re-analysis of the deposited data

How the results depend on the processing

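Over all probes, 2867 were called, against 1500 with normexp background correction, 444 with the slide row as a block and 796 to 1487 with 1 sample left out. Of the CSF receptor and ligand probes, 2 were called, against 0 with the slide row as a block (limma, 3 at an unadjusted p of 0.05 or less) and 0 to 2 with 1 sample left out, the 0 being without B41HET replicate 2. Of the partner and signalling probes, 10 were called, against 0 with the slide row as a block, 16 without a fold threshold and 0 to 3 with 1 sample left out; it was 0 without B41HET replicate 1 or 2. The cause of these differences was not tested, beyond the smaller number of samples.

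Same-numbered samples had correlations of their deviations of 0.13, -0.01 and 0.17, so the replicate numbers were not taken to pair samples. With a replicate block, 42 probes were called over all, 0 among the members and 0 among the partner and signalling probes (4 and 34 at an unadjusted p of 0.05 or less), and not every sample correlated best with its own number.

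Uncalled values that changed sign were small or near background. Csf1 gave -0.25 as the mean over its probes and -0.41 on the probe with the lowest p. With the slide row as a block, the dim Csf1 probe A_55_P2169669 gave 0.32 and Il34 A_51_P268234 gave -0.22. With 1 sample left out, Il34 ranged from -0.0425 to 0.13 on A_66_P124871 and from -0.0939 to 0.13 on A_51_P268234, and Csf3r from -0.0009 to 0.0527. On the brightest Csf2rb probe, dropping the value of B41HET replicate 3 gave -0.19. The direction of both called Csf2rb probes was the same under all alternatives run.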
